A study of Mus musculus with 16 samples.

Results

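The group described here holds 8 genes that carry interferon signals from the cell surface: the receptor chains Ifnar1, Ifnar2, Ifngr1, Ifngr2 and Il10rb and the Janus kinases Jak1, Jak2 and Tyk2. They were taken by gene symbol, and all 8 were among the 32285 genes listed. Nuclei from mouse hippocampus were profiled by single-nucleus RNA-seq (10x Genomics 3′ chemistry) in 16 libraries of male mice, with 1 animal in each. WT mice were C57BL/6 and aged 2 months and 23 days, and Ifnar1-/- mice were aged 3 months and 3 days. Within each genotype, 4 libraries came from vehicle-treated mice and 4 from DMXAA-treated mice. DMXAA activates mouse STING, a sensor that induces type I interferon. Mice of both genotypes received repeated intraperitoneal injections, and hippocampi of the right hemisphere were taken the day after the last. The genotypes were bought as separate lines and differed in age, so genotype, age and cohort cannot be told apart.

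Type I interferons bind a receptor made of IFNAR1 and IFNAR2, which hold the kinases TYK2 and JAK1. Interferon gamma binds IFNGR1 and IFNGR2, which hold JAK1 and JAK2. IL10RB is the shared chain of the receptors for IL-10, IL-22 and type III interferon, and also works with TYK2. The kinases phosphorylate STAT proteins. With IRF9, STAT proteins such as STAT2 turn on interferon-stimulated genes through the interferon-stimulated response element. The interferon gamma signal acts through another motif, the gamma-activated sequence.

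Of the receptor genes, 4 lie close together on the plus strand of chromosome 16 (GRCm38, GENCODE M21). Ifnar2 spans chr16:91372783-91405589, Il10rb chr16:91406164-91425834, Ifnar1 chr16:91485238-91507441 and Ifngr2 chr16:91547072-91565623. Ifngr1 lies at chr10:19591949-19610229 and Jak2 at chr19:29251828-29313080, both on the plus strand. Jak1 lies at chr4:101152367-101265282 and Tyk2 at chr9:21104068-21131243, both on the minus strand. Tyk2 overlaps 1700084C06Rik on the opposite strand, which held 8581 UMIs in the WT vehicle libraries against 5138 for Tyk2. The end of Jak1 meets Raver2 on the opposite strand, with 11520 UMIs against 12215 for Jak1. Raver2 reaches only to chr4:101152370, so its overlap with Jak1 is a few bases. Whether reads were counted by strand is not given in the sources used here, so the counts of Tyk2 and 1700084C06Rik could be split.

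Promoter sequences were matched for 7 of the 8 genes (RefSeq, GRCm38.p6, from 250 bases before to 50 bases after the start site). Both motifs were searched on both strands, since members were compared with and without interferon induction. The core of the interferon-stimulated response element, GAAANNGAAA, was found in 3.44% of 32851 promoters and in 0 of the 7 members. The gamma-activated core, TTCNNNGAA, was found in 8.30% of promoters and in 2 of the 7, the pair that form the type I receptor. They are given here with that of Stat2, a target and carrier of the same signal, and the capitals mark the core. Among the pathway genes named below as raised by DMXAA, a match was found for Stat2 only. The match therefore does not set apart the genes that rose.
Ifnar2, chr16:91372559-91372587, plus strand: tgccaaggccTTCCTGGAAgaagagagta
Ifnar1, chr16:91485200-91485228, plus strand: ggcgggggcgTTCACGGAAggggcggggc
Stat2, chr10:128270266-128270295, plus strand: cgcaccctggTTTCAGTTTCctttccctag
The core of Ifnar2 began 214 bases before the RefSeq start site and that of Ifnar1 5 bases before it. For Ifnar1 the RefSeq start lies upstream of the GENCODE start given above. The core of Stat2 reads GAAANNGAAA on the minus strand and began 222 bases before the start. A match is a description of letters and not a measured binding site.

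After filtering, 108878 of 155084 barcodes were kept as nuclei, 5163 to 9237 a library, with 32492380 to 52727363 UMIs a library. Pairs of libraries shared 12 to 41 barcodes, at most 0.445% of the smaller library, and no pair held identical counts. In WT vehicle libraries, excitatory neurons (EN) were 43.5% of nuclei, oligodendrocytes 15.8%, astrocytes 11.2% and microglia 4.41 ± 0.27% (SD, n = 4). A library of WT DMXAA, replicate 3, stood apart from its group. Its nuclear RNA Malat1 was at 23624 CPM (UMIs per 1000000), against 75219 to 91614 in the other 3 WT DMXAA libraries and 12674 to 27949 in the Ifnar1-/- libraries. Its scaling factor (trimmed mean of M values, TMM) was 0.844, against 0.848 to 0.977 in Ifnar1-/- and 1.09 to 1.18 in the other WT libraries. Its Ifnar1 level of 13.5 CPM lay above all 8 Ifnar1-/- libraries (10.8 to 12.8) and below the other WT libraries. The main values that this library moved are given with and without it.

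Ifnar1, the targeted gene, was still transcribed in Ifnar1-/- nuclei but at a lower level. In whole tissue, the WT vehicle libraries read 17.0, 18.9, 18.8 and 18.8 CPM and the WT DMXAA libraries 19.1, 18.7, 13.5 and 18.7 CPM. The Ifnar1-/- vehicle libraries read 11.6, 10.8, 11.6 and 12 CPM, and the Ifnar1-/- DMXAA libraries 12.8, 11.1, 12.1 and 12.1 CPM. Every Ifnar1-/- library lay below every WT library, and the lowest WT library was the one that stood apart. Over both treatments, 3483 UMIs in Ifnar1-/- stood against 5613 in WT, or 11.7 ± 0.65 against 17.9 ± 1.9 CPM (SD, n = 8). After TMM scaling, the residual level was 78.7% of WT (95% CI 73.2 to 84.7), a log2 change of -0.35 ± 0.05 (SE, adjusted p = 5.7e-05). Without the library that stood apart it was 78.6%. In the same comparison, 6333 of 20103 genes in whole tissue were called lower and 5244 higher, with a median log2 change of -0.05. A lower call was thus not particular to Ifnar1. Son, the gene of a splicing factor, fell by 0.47 ± 0.10 and Malat1 by 1.39 ± 0.23 on the log2 scale. Both genes were picked by hand, and whether they are independent of the targeted locus was not examined. With library sizes as the only scaling, the residual Ifnar1 level was 65.5% of WT. The size of the loss thus depended on the scaling and its direction did not. In bulk sums, fewer nuclei of a class and less RNA per nucleus cannot be told apart. Which part of the gene is deleted is not given in the sources used here, and 3′ reads may lie outside it, so the residual transcript says nothing about receptor protein.

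**Figure D1:**
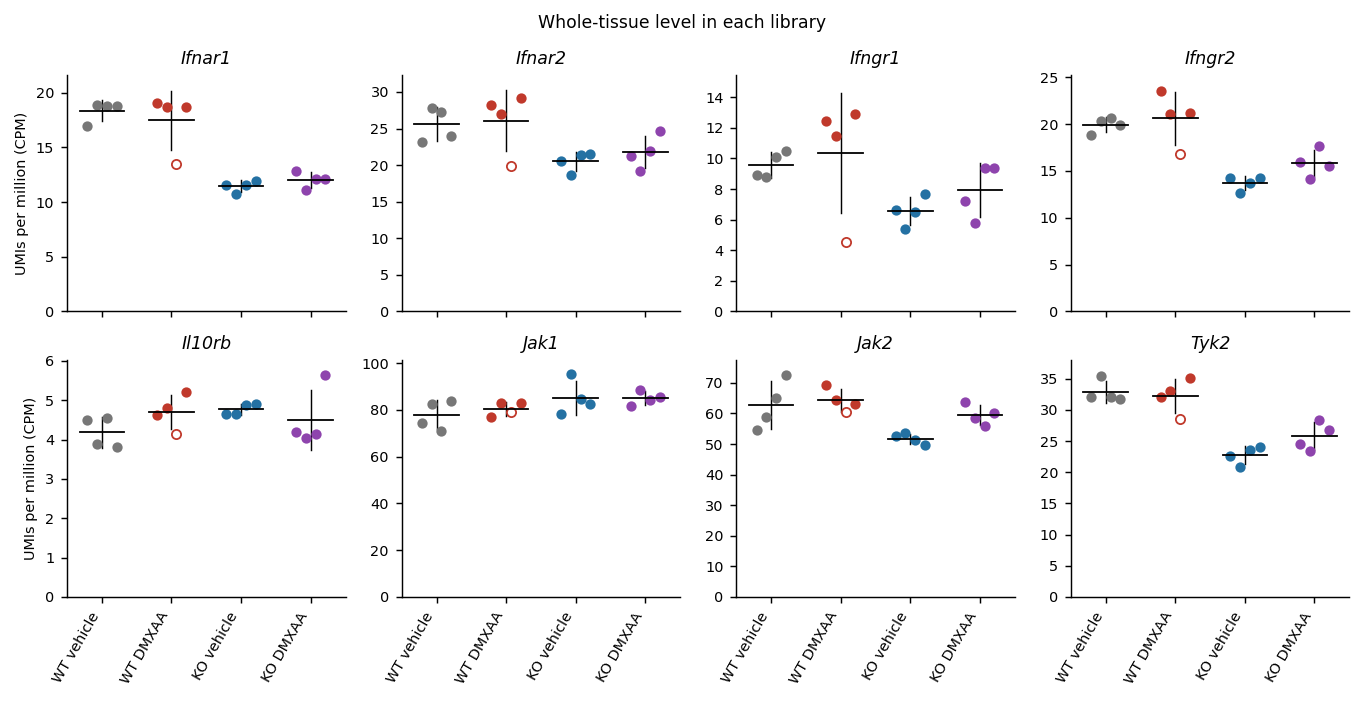
Whole-tissue level of each gene (CPM, y axis from 0) in each library by group; lines give the mean and SD of 4 libraries and the open point is WT DMXAA replicate 3. The Ifnar1-/- libraries lie at 10.8 to 12.8 CPM for Ifnar1, below all WT libraries (13.5 to 19.1), whereas the DMXAA and vehicle points of Ifnar1 overlap within each genotype.

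The lower Ifnar1 level was seen in most classes of nuclei. EN held 73.3% of the WT level (95% CI 66.4 to 80.9, adjusted p = 0.00015), inhibitory neurons 72.1% (56.3 to 92.3, adjusted p = 0.025) and astrocytes 74.5% (58.8 to 94.3, adjusted p = 0.039). On library sizes alone EN were at 56.3% and inhibitory neurons at 59.0%. Son fell by 0.67 in EN, 0.71 in inhibitory neurons and 0.57 in astrocytes on the log2 scale, against 0.45, 0.47 and 0.43 for Ifnar1. Whether Son is independent of the targeted locus was not examined, and what these falls share was not tested. Inhibitory neurons also differed in makeup, with 1 of their 4 clusters holding 15.8% of WT and 30.7% of Ifnar1-/- nuclei. These 3 classes passed the test, against a background of 25.8% of gene and class combinations called lower in Ifnar1-/-. With 1 library left out in turn, the log2 change stayed at -0.54 to -0.39 in inhibitory neurons and -0.53 to -0.34 in astrocytes, but both calls were sensitive to single libraries. The call in inhibitory neurons was lost without WT vehicle replicate 2 or 3, WT DMXAA replicate 1 or 4, Ifnar1-/- vehicle replicate 1 or Ifnar1-/- DMXAA replicate 1 or 2 (adjusted p up to 0.067). In astrocytes it was kept only without WT vehicle replicate 2, WT DMXAA replicate 3 or 4, Ifnar1-/- vehicle replicate 4 or Ifnar1-/- DMXAA replicate 1, and otherwise lost (adjusted p up to 0.089). Microglia held 73.0% (54.3 to 98.2) and oligodendrocyte precursors (OPC) 70.5% (49.5 to 101), which did not pass (adjusted p = 0.097 and 0.10). Without the library that stood apart they were 71.7% and 67.1%, and both passed (adjusted p = 0.029 and 0.034). Among EN, dentate granule neurons held 72.9%, CA1 neurons 63.5% and CA3 neurons 63.7%, and all 3 passed.

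Oligodendrocytes gave the value nearest to WT, 93.5% (95% CI 79.8 to 109, adjusted p = 0.48), or 88.1% with library sizes only. Their libraries overlapped, at 16.8 to 24.9 CPM in WT and 11.5 to 21.2 in Ifnar1-/-. The nuclei behind this value fell into different clusters by genotype: a cluster with Mog among its leading genes held 82.2% of WT and 4.66% of Ifnar1-/- oligodendrocytes. The part of that split in the value was not tested. The difference between classes was itself tested by an exact permutation of genotype over libraries for all 15 pairs of 6 classes, a test chosen after seeing the values. EN and oligodendrocytes differed most in probability, by -0.32 on the log2 scale (two-sided exact permutation p = 0.018, adjusted p = 0.27), and no pair passed after adjustment. Without the library that stood apart, the same pair gave p = 0.028 (exact permutation, adjusted p = 0.41).

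**Figure D2:**
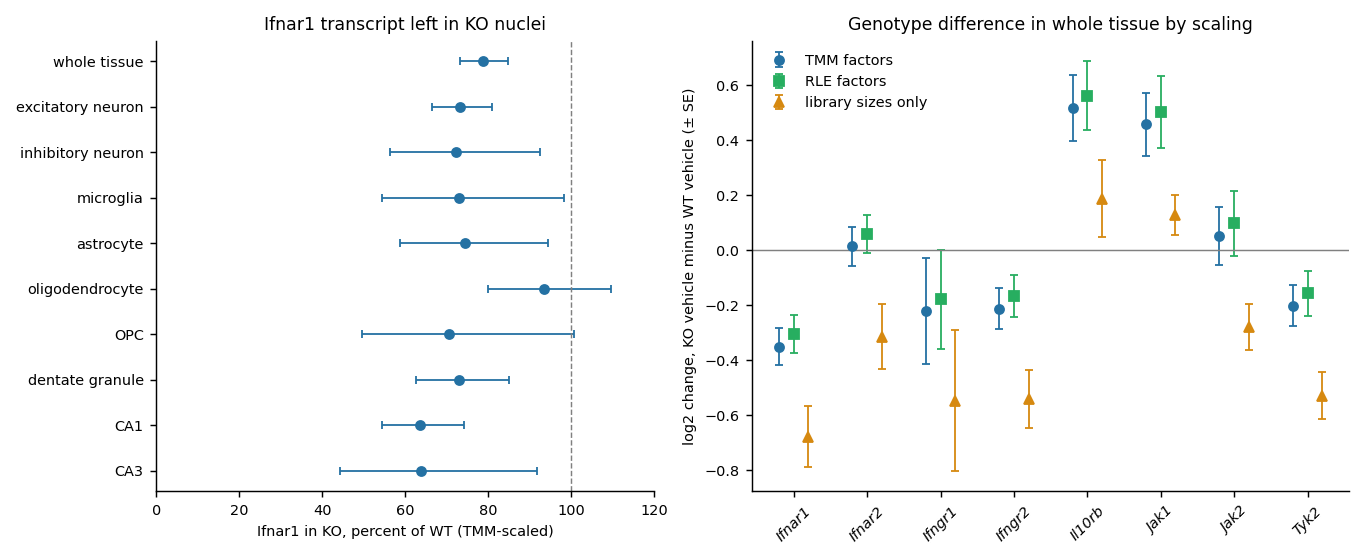
Left, Ifnar1 in Ifnar1-/- (KO) as percent of WT in each class (TMM-scaled, points with 95% CI, dashed line at equal levels). Right, log2 change of each gene in whole tissue between Ifnar1-/- and WT vehicle mice (points with SE) under 3 scalings: Ifnar1 is below 0 in all 3, and Jak1 and Il10rb drop from 0.46 and 0.52 with TMM to 0.13 and 0.19 with library sizes only.

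Levels by class were taken from the 4 WT vehicle libraries, in CPM of the UMIs of that class, and are compared within a gene only. Microglia had the highest level of 7 of the 8 genes among the 8 classes present in all 8 libraries compared, and Jak2 was highest in oligodendrocytes. Neighbours in the order of classes were compared within libraries by a two-sided exact permutation test (8 vehicle libraries, or the 8 WT libraries for Ifnar1). The order was set by the means of the 4 WT vehicle libraries, which are among the 8 tested. Order and test are therefore not independent, and the p values and counts of libraries describe the steps only. Of 56 neighbour pairs, 23 passed after adjustment and 33 did not. The smallest p this test can give is 0.0078125, and the smallest adjusted p was 0.020.

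Of the type I receptor chains, Ifnar2 had the wider range. Microglia read 238, 228, 230.5 and 179 CPM, a mean of 219 ± 27 (SD, n = 4). Fibroblasts followed at 110 ± 6.1 CPM, OPC at 40.9 ± 9.4, astrocytes at 31.2 ± 6.2, EN at 19.0 ± 2.0, inhibitory neurons at 15.1 ± 1.2 and oligodendrocytes at 14.5 ± 2.4. Each step down to inhibitory neurons passed the test and was seen in 8 of 8 libraries, whereas inhibitory neurons and oligodendrocytes did not differ beyond their spread (adjusted p = 0.35, exact permutation). Ifnar1 was flatter. It was at 54.0 ± 16 CPM in microglia and 39.7 ± 6.7 in fibroblasts, and both steps, from microglia to fibroblasts and from fibroblasts to oligodendrocytes (22 ± 2.2), passed. Below that, OPC, astrocytes, inhibitory neurons and EN lay between 16.5 and 20.2 CPM, and none of their neighbour pairs passed. Endothelial nuclei read 151 and 160 CPM of Ifnar1 in the 2 libraries with enough nuclei, above every microglial library (43.1 to 77.5), on 17 UMIs in all. Perivascular and meningeal macrophages, named border macrophages here, read 62.1 to 139 CPM of Ifnar1 and 227 to 314 CPM of Ifnar2 in 3 libraries.

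The interferon gamma receptor chains were far higher in microglia than in the rest of the 8 classes compared. Ifngr1, the ligand-binding chain, read 222, 220, 217 and 283 CPM in microglia and 30.7 ± 8.7 in fibroblasts, a mean log2 difference of 2.96 ± 0.30 (SD, 8 of 8 libraries). Astrocytes read 15.9 ± 0.72 CPM, OPC 11.1 ± 5.9 and oligodendrocytes 9.30 ± 2.1. The step from OPC to oligodendrocytes did not pass, and astrocytes and OPC were not neighbours in the order. Ifngr1 was at 4.47 ± 1.3 in inhibitory neurons and 3.13 ± 0.51 in EN, each lower than the class above it in 8 of 8 libraries. Ifngr2, the signalling chain, read 194, 179, 177 and 185 CPM in microglia. Cajal-Retzius neurons aside, its next level among the 8 classes was that of EN, 19.9 ± 1.7 CPM. Fibroblasts followed at 13.8 ± 5.1, inhibitory neurons at 12.6 ± 1.9 and astrocytes at 9.16 ± 1.8. None of the steps below microglia passed for Ifngr2. Border macrophages read 101 to 279 CPM of Ifngr1, overlapping microglia, and 93.2 to 176 CPM of Ifngr2 in 3 libraries. Endothelial nuclei read 91.7 and 121 CPM of Ifngr1 in 2 libraries, on 12 UMIs. Cajal-Retzius neurons, with few nuclei, spanned 0 to 79.4 CPM of Ifngr2 over the libraries and stand in no clear place in the order.

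Il10rb was also low in neurons and oligodendrocytes. Microglia read 79.3, 77.5, 87.9 and 95.2 CPM, fibroblasts 37.7 ± 15, OPC 9.63 ± 4.6, astrocytes 4.94 ± 1.1 and EN 1.30 ± 0.49 CPM. Inhibitory neurons held 4 Il10rb UMIs and oligodendrocytes 5 over all 4 WT vehicle libraries, and Cajal-Retzius neurons held 0, where a count of 0 allows up to 3. Border macrophages read 233 to 277 CPM in 3 libraries, above every microglial library, and endothelial nuclei 91.7 and 121 CPM in 2 libraries, on 12 UMIs.

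The low neuronal levels were set beside 9 microglial markers measured in the same nuclei. In EN, these markers were at a median of 0.134% of their microglial level (range 0.0302 to 4.36%). The highest of them was P2ry12, and the other 8 were at most 0.692% (Cx3cr1). Il10rb, at 1.53%, and Ifngr1, at 1.33%, lay below P2ry12 and above the other 8, so whether these 2 levels in EN exceed free RNA was not resolved. The other 6 genes lay above all 9 markers in EN: Ifnar2 at 8.69%, Ifngr2 at 10.8%, Jak1 at 27.6%, Ifnar1 at 30.5%, Tyk2 at 44.8% and Jak2 at 58.4% of the microglial level. In oligodendrocytes the markers reached at most 1.47%, with Il10rb at 0.602% and Ifngr1 at 3.95%.

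The kinases differed in their order of classes. Jak1, which serves all of these receptors, read 235, 276, 262 and 273 CPM in microglia, 135 ± 12 in fibroblasts and 129 ± 16 in astrocytes. Fibroblasts and astrocytes did not differ beyond their spread (adjusted p = 0.64, exact permutation), and astrocytes lay above inhibitory neurons (75.6 ± 6.1) in 8 of 8 libraries. EN followed at 72.2 ± 7.0 CPM, OPC at 56.7 ± 6.1 and oligodendrocytes at 42.1 ± 2.0. Within EN, Jak1 spanned 160 to 166 CPM in CA3, 74.7 to 93.3 in CA1 and 60.5 to 67.4 in dentate granule neurons, and these 3 ranges did not overlap.

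Jak2, the kinase of IFNGR2, was highest in oligodendrocytes among the 8 classes compared. Oligodendrocytes read 184 ± 20 CPM (157 to 203) against 88.2 ± 24 in microglia, a log2 difference of 1.18 ± 0.33 (SD) with the same sign in 8 of 8 libraries (adjusted p = 0.020, exact permutation). Differentiating OPC read 139 to 230 CPM in 3 libraries. OPC were at 79.4 ± 10, astrocytes at 66.0 ± 5.0, EN at 51.5 ± 9.6 and inhibitory neurons at 37.4 ± 6.2 CPM, and each step from OPC to inhibitory neurons passed. Tyk2, the kinase of IFNAR1 and IL10RB, was at 77.0 ± 4.6 CPM in microglia and 41.8 ± 8.6 in fibroblasts, and this step passed. Its remaining classes lay between 16.6 and 34.5 CPM, and none of the steps among them passed. Within EN, Tyk2 was at 43.8 to 48.4 CPM in dentate granule neurons and 27.7 to 35.9 in CA1, with no overlap, and CA3 overlapped both at 30.7 to 46.2.

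**Figure D3:**
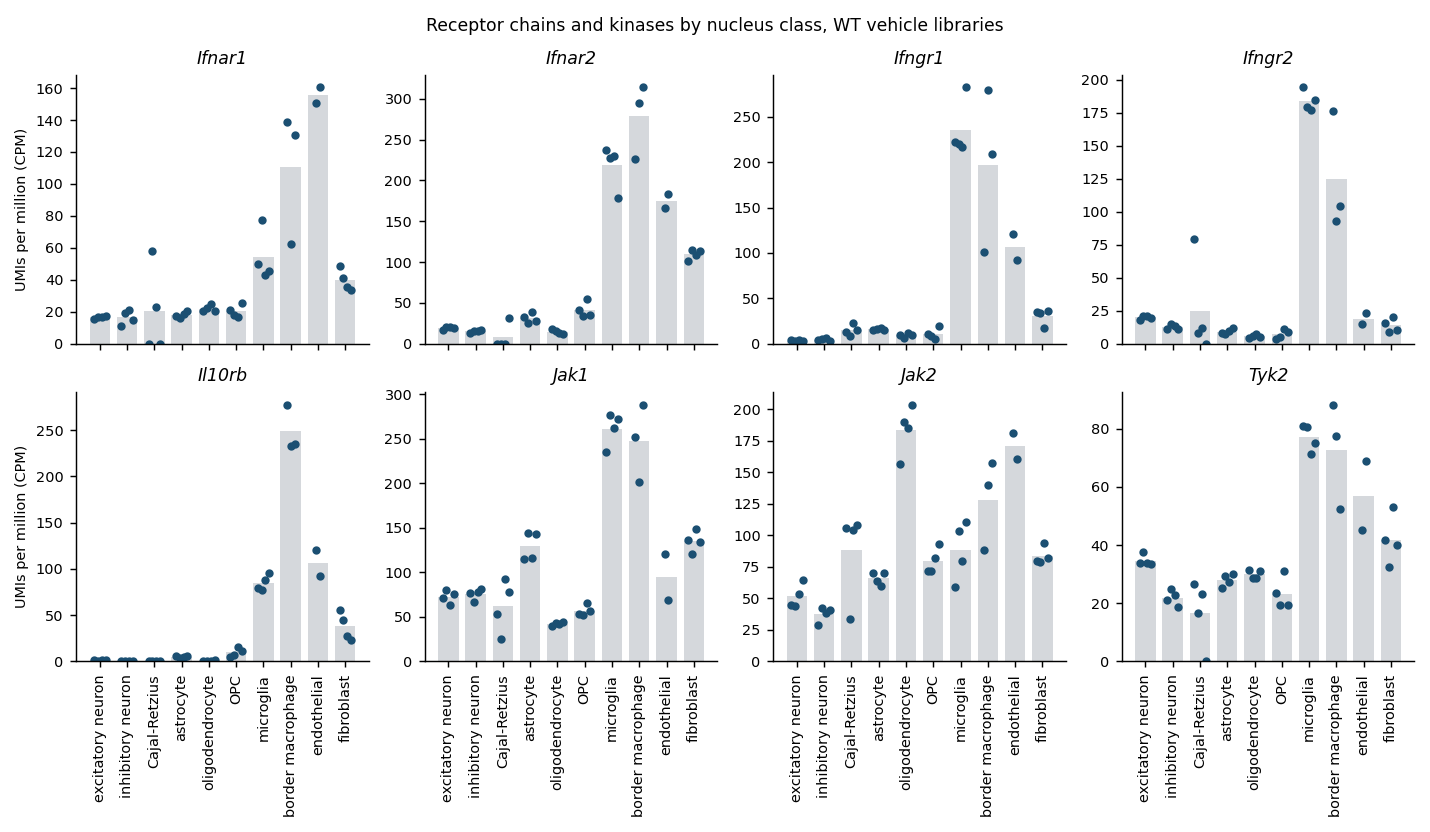
Level of each gene (CPM of the UMIs of that class) in 10 classes of nuclei; points are WT vehicle libraries with at least 20 nuclei of the class, and bars their mean. Microglia stand highest of the 8 classes present in all libraries compared for every gene but Jak2, which among them peaks in oligodendrocytes at 184 CPM. Border macrophages and endothelial nuclei, in 3 and 2 libraries, reach or exceed microglia for several genes.

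Because microglia are few, a high level per UMI did not always mean a large part of the transcript in kept nuclei. All shares here are of the UMIs of kept nuclei. WT vehicle libraries held 66059561 to 90398358 UMIs before filtering and 36668743 to 40474195 after it. Filtering removed barcodes over the upper limit on genes. Kept EN had a median of 7848.5 to 8238 UMIs a nucleus in WT vehicle libraries, and microglia 1806 to 1922. How the removed barcodes would move the shares was not tested. Microglia gave 1.64 ± 0.071% of all UMIs in WT vehicle libraries (SD, n = 4) but 40.4 ± 4.7% of Ifngr1 UMIs, 33.7 ± 6.7% of Il10rb, 15.2 ± 1.4% of Ifngr2 and 14.1 ± 1.7% of Ifnar2 UMIs. They gave 4.79 ± 1.2% of Ifnar1 UMIs and 2.29 ± 0.50% of Jak2 UMIs. EN, with 67.6 ± 1.6% of all UMIs, gave 60.6 ± 2.0% of Ifnar1, 67.3 ± 3.4% of Ifngr2 and 71.1 ± 1.8% of Tyk2 UMIs. A whole-tissue change in Ifnar1 or Tyk2 therefore read mainly neuronal nuclei. Oligodendrocytes gave 20.4 ± 3.5% of Jak2 UMIs and 6.93 ± 0.97% of all UMIs.

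DMXAA changed none of the 8 genes in a way that passed the test, in either genotype. The genes were tested by edgeR's quasi-likelihood test in whole tissue and in 6 classes (EN, inhibitory neurons, microglia, astrocytes, oligodendrocytes and OPC), where 52 gene and class combinations passed the filter on low counts. Il10rb did not pass it in inhibitory neurons, oligodendrocytes and OPC, and Ifngr1 did not in OPC. In WT mice, 0 of 52 were called (adjusted p under 0.05 with a log2 change over 0.1), 2 had an unadjusted p under 0.05, and the background over all genes was 0.336%. In Ifnar1-/- mice, 0 of 52 were called, 4 had an unadjusted p under 0.05, and the background was 0%. The difference of the DMXAA effect between genotypes was called for 0 of 52, with 2 at an unadjusted p under 0.05 and a background of 0.0389%. With backgrounds this low, counts of 0 in 52 are no result about these genes. DESeq2 and limma also called 0 in each of these comparisons. The lowest adjusted p in WT was 0.21 (edgeR). The median log2 change over the 52 combinations was 0.11. Over all genes it was 0.0081 in whole tissue alone, so these medians cover unlike sets.

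The intervals show how large a change could have been missed. In WT whole tissue, Ifnar1 changed by -0.02 on the log2 scale (95% CI -0.16 to 0.13), Ifnar2 by 0.08 (-0.07 to 0.24) and Ifngr2 by 0.11 (-0.05 to 0.27). Jak1 changed by 0.12 (-0.13 to 0.37), Jak2 by 0.11 (-0.12 to 0.34) and Tyk2 by 0.04 (-0.12 to 0.20). Ifngr1 changed by 0.12 (-0.30 to 0.54) and Il10rb by 0.23 (-0.03 to 0.50). A rise of 1 on the log2 scale lay outside all 8 of these intervals. The Ifngr1 value rested on the library that stood apart, which read 5.37 TMM-scaled CPM, against 9.97 to 11 in the other WT DMXAA libraries and 7.76 to 9.60 in WT vehicle. Without it the 3 DMXAA libraries lay above all vehicle libraries, and Ifngr1 changed by 0.31 ± 0.13 (SE, edgeR adjusted p = 0.24), which was not called. The other 7 members then lay between -0.02 and 0.17, with Jak1 at 0.0043 and Jak2 at 0.02. Il10rb had the largest difference of effects in whole tissue, 0.39 ± 0.17 (SE, edgeR adjusted p = 0.70). The WT vehicle libraries were at 4.51, 3.89, 4.55 and 3.80 CPM and WT DMXAA libraries at 4.63, 4.81, 4.15 and 5.22 CPM. In CPM these groups overlapped only through the library that stood apart, at 4.15. After TMM scaling that library read 4.92, and the other WT DMXAA libraries (4.08 to 4.41) overlapped WT vehicle (3.43 to 4.11).

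In microglia, Tyk2 had the lowest p of the WT comparison. WT vehicle libraries read 80.8, 80.8, 71.3 and 75.3 CPM and WT DMXAA libraries 105, 107, 81.7 and 96.7 CPM, and these did not overlap. The log2 change was 0.38 ± 0.13 (95% CI 0.10 to 0.65, adjusted p = 0.21). In Ifnar1-/- microglia, Tyk2 went from 55.4, 61.0, 54.3 and 66.0 CPM with vehicle to 88.0, 78.2, 98.0 and 83.0 CPM with DMXAA, again without overlap, a log2 change of 0.51 ± 0.14 (95% CI 0.21 to 0.81, adjusted p = 0.87). The difference of the Tyk2 effects was -0.14 (95% CI -0.54 to 0.27), so an effect of DMXAA on Tyk2 that differed by genotype was not detectable. Ifnar2 in WT microglia changed by -0.21 (95% CI -0.56 to 0.14), Ifngr1 by 0.08 (-0.39 to 0.56) and Ifngr2 by 0.10 (-0.18 to 0.39). Ifnar1 in WT microglia changed by 0.17 (-0.39 to 0.74), on 309 UMIs in all 8 WT libraries, so its interval is wide. Outside microglia, the other WT comparison with an unadjusted p under 0.05 was Ifngr2 in OPC, 0.89 ± 0.40 (adjusted p = 0.86). Without the library that stood apart, 0 of 52 were called in WT (background 1.66%) and 4 had an unadjusted p under 0.05. The lowest adjusted p was then that of Jak1 in oligodendrocytes, -0.46 ± 0.14 (adjusted p = 0.087), which was -0.13 ± 0.21 with it.

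**Figure D4:**
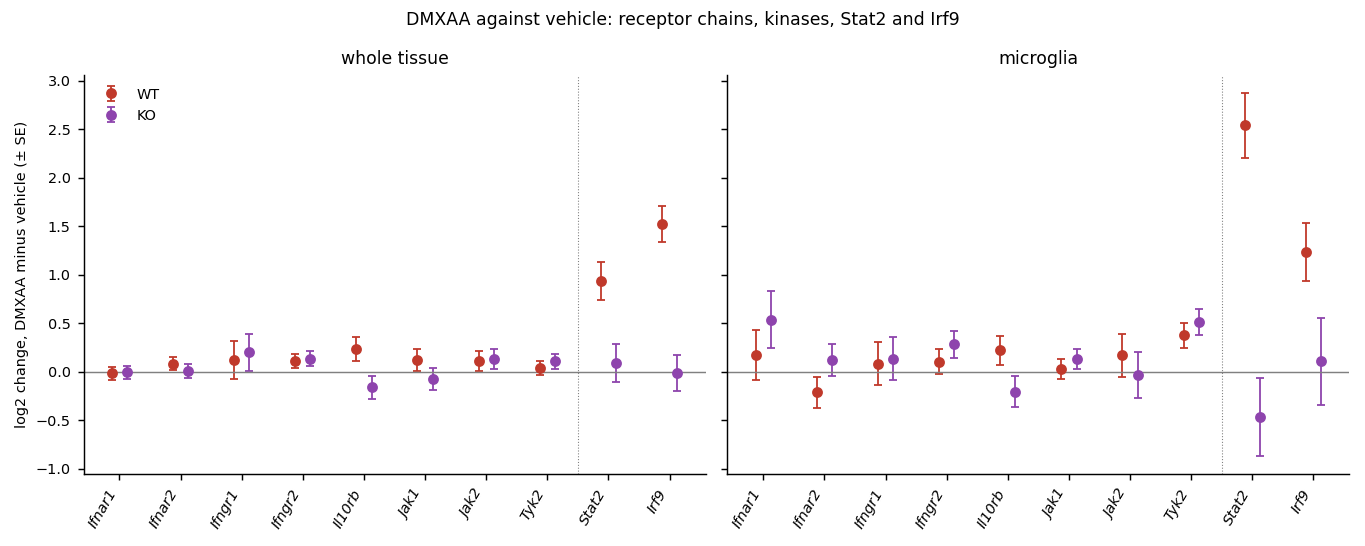
Log2 change with DMXAA (points with SE) in WT and Ifnar1-/- (KO) whole tissue and microglia for the 8 genes and for Stat2 and Irf9. Stat2 lies at 0.94 in WT whole tissue and 2.54 in WT microglia, both called, whereas the 8 genes lie between -0.21 and 0.38 in WT, none of them called.

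Genes upstream and downstream of these receptors were taken from a list of 72, which held ligands, other receptor chains, receptors that use the same kinases, signal transducers and negative regulators, of which 71 were in the matrices and 46 passed the filter. In WT mice, 4 of the 46 rose with DMXAA in at least 1 of the 7 tables (whole tissue and 6 classes) and 42 were not called, where 1.01% of all genes were called at least once. Irf9, Stat2 and Usp18 were among the 4. Irf9, the DNA-binding partner of the STAT proteins, rose by 1.52 ± 0.19 on the log2 scale in whole tissue (adjusted p = 0.00056), 1.24 in microglia, 2.16 in astrocytes and 2.92 in OPC. Stat2, which docks on the type I receptor, rose by 0.94 ± 0.19 in whole tissue (adjusted p = 0.043) and 2.54 ± 0.34 in microglia. Usp18, which binds IFNAR2 and blocks its signal, rose by 3.65 ± 0.48 in whole tissue (adjusted p = 0.00080). In Ifnar1-/- mice, 0 of the 46 were called with edgeR, where 0 of 20107 genes were called at least once. That count is therefore no result about the list. In whole tissue 1 gene, Pias3, was under an unadjusted p of 0.05 (edgeR), and no other tool was run on the list. Irf9 changed there by -0.01 ± 0.19 and Stat2 by 0.09 ± 0.20. The difference of effects was called at least once for 3 genes (0.119% of all genes were), among them Stat2 in microglia (3.00 ± 0.53, adjusted p = 0.024) and Irf9 in whole tissue (1.54 ± 0.26, adjusted p = 0.043). For Usp18 the difference was not called in any of the 7 tables. Without the library that stood apart, the same 4 genes were called higher in WT, and Il6st in microglia and Socs2 in oligodendrocytes were called lower (-0.87 ± 0.25 and -1.24 ± 0.29), while the background over all gene and class combinations rose from 0.336% to 1.66%.

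The ligands of these receptors were close to undetected in nuclei. All 23 on the list were in the matrices, none passed the filter, and 13 had 0 UMIs in all 16 libraries, Ifnb1 among them. Ifng had 3 UMIs in all, Il22 15, Il10 26 and Ifnk, the highest, 94. Ifnk was spread over the groups, with 23 UMIs in WT vehicle, 31 in WT DMXAA, 20 in Ifnar1-/- vehicle and 20 in Ifnar1-/- DMXAA.

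Between vehicle groups, 18 of the 46 pathway genes were called in whole tissue, 14 higher and 4 lower in Ifnar1-/-, where 48.6% of all genes were. With the library that stood apart left out, 23 were called, 19 higher and 4 lower. The share of 18 in 46 lies below the one over all genes and is no result about the list, so only values are given. Il6ra was higher by 0.76 ± 0.19, Il6st by 0.50 ± 0.09, Osmr by 1.03 ± 0.25 and Ghr by 0.74 ± 0.14. Stat3 (0.54 ± 0.13) and Stat5b (0.46 ± 0.08) were also higher, and Socs3, a feedback inhibitor of JAK signalling, was lower (-1.25 ± 0.38). The split depended on the scaling: on library sizes alone 17 were called, 4 higher (Ghr, Il6ra, Osmr and Socs5) and 13 lower. Stat3 and Stat5b were then at 0.20 and 0.14 and not called, and Socs3 was at -1.58 and called. In the 6 classes and whole tissue together, 25 of the 46 were called at least once, where 59.1% of all genes were. Of these, 19 were higher (Cbl, Cntfr, Ghr, Ifnlr1, Il6ra, Il6st, Lepr, Lifr, Osmr, Pias1, Pias2, Ptpn1, Ptpn2, Ptprc, Sh2b3, Socs5, Socs7, Stat3 and Stat5b) and 6 lower (F3, Il12rb2, Irf9, Pias3, Socs3 and Usp18). On library sizes alone 26 were called, 7 higher and 20 lower, with Ptprc in both. There the median of all genes in whole tissue was -0.39, against -0.06 after TMM scaling. With the library that stood apart left out, 30 were called, 23 higher and 7 lower. The background over all gene and class combinations then rose from 36.6% to 48.2%. The share of all genes called on library sizes alone is not given here. The counts under these other settings are therefore no result about the list.

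Between vehicle-treated genotypes, several members differed beyond Ifnar1, in a comparison where many genes did. Of the 52 combinations, 9 were called, 5 higher and 4 lower in Ifnar1-/-, against a background of 36.6% over all genes (17.0% higher and 19.6% lower). In whole tissue, 5 of 8 members were called, against 48.6% of all genes. The first share lies below its background and the second near it, so neither is a result about these genes, and only the values are given. Jak1 was the member called most often, higher in Ifnar1-/- by 0.46 ± 0.12 in whole tissue, 0.45 ± 0.11 in EN, 0.47 ± 0.14 in inhibitory neurons and 0.49 ± 0.12 in astrocytes (SE, adjusted p = 0.0054, 0.0053, 0.017 and 0.0069). In CPM its whole-tissue libraries overlapped, at 71.0 to 83.8 in WT vehicle and 78.1 to 95.3 in Ifnar1-/- vehicle. After TMM scaling they did not, at 61.5 to 76.6 and 87.2 to 112.

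Most of the calls of higher Jak1 and Il10rb were lost when library sizes were the only scaling. With relative log expression (RLE) factors, DESeq2 and limma, 5 of the 52 combinations were called higher each time, as in the main edgeR fit. TMM scaling left the median of all genes in whole tissue at -0.06 between vehicle groups, and library sizes alone at -0.39. On library sizes alone, Jak1 differed by 0.13 in whole tissue (adjusted p = 0.15) by 0.12 in inhibitory neurons (adjusted p = 0.37) and by -0.02 in EN, where its sign turned. In astrocytes Jak1 stayed higher on library sizes alone, by 0.35 ± 0.10 (adjusted p = 0.015). Il10rb in whole tissue was higher by 0.52 ± 0.12 (adjusted p = 0.0036) after TMM scaling and by 0.19 (adjusted p = 0.26) on library sizes alone. The library that stood apart, a WT library, read 93.6 TMM-scaled CPM of Jak1 and 4.92 of Il10rb, inside the ranges of the Ifnar1-/- libraries (85.0 to 112 and 4.33 to 5.78) and outside those of WT vehicle (61.5 to 76.6 and 3.43 to 4.11). For Ifnar1 it read 16 TMM-scaled CPM, inside the WT vehicle range (15.4 to 17.2) and outside that of Ifnar1-/- (12.4 to 13.4). In CPM without TMM scaling it read 78.9 of Jak1 and 4.15 of Il10rb. Both lay inside the WT vehicle ranges (71.0 to 83.8 and 3.80 to 4.55) and inside those of Ifnar1-/- (78.1 to 95.3 and 4.04 to 5.64). The Malat1 level of that library also lay with Ifnar1-/-, and Malat1 fell by 1.53 ± 0.32 on the log2 scale between vehicle groups. The part of RNA composition in the Jak1 and Il10rb values was not tested.

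Among the lower members, Ifngr2 was at -0.21 ± 0.07 (adjusted p = 0.028) and Tyk2 at -0.20 ± 0.07 (adjusted p = 0.035) in whole tissue, beside Ifnar1 at -0.35 ± 0.07 (adjusted p = 0.0012). With DESeq2 Ifngr2 and Tyk2 were at -0.17 and -0.16 and the calls were lost (adjusted p = 0.061 and 0.12), and on library sizes alone they were at -0.54 and -0.53 and called (adjusted p = 0.0011 and 0.00051). On chromosome 16, Ifnar2 and Il10rb, on the other side of Ifnar1 from Ifngr2, were at 0.01 ± 0.07 and 0.52 ± 0.12. In EN, Ifnar1 was lower by -0.47 ± 0.09 (adjusted p = 0.0016). By region of EN, 7 of 21 combinations were called, 2 higher and 5 lower, against a background of 43.2%. Dentate granule neurons had lower Ifnar1 (-0.49), Ifngr1 (-1.09) and Tyk2 (-0.31) and higher Jak1 (0.44), CA1 neurons lower Ifnar1 (-0.77) and Tyk2 (-0.38) and higher Jak1 (0.34), and CA3 neurons had no call. The Ifngr1 value in dentate granule neurons rested on 63 UMIs in WT vehicle (1.84 ± 0.71 CPM), a level not resolved from free RNA. In fibroblasts, a class outside the 52 combinations, Ifnar2 was lower by -0.55 ± 0.18 (edgeR adjusted p = 0.045). The share of all genes called in fibroblasts is not given here, so this call is no result about Ifnar2. Without the library that stood apart, 14 of 52 were called, 7 higher and 7 lower, while the background rose to 48.2%.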

How the data were processed

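Single-nucleus libraries of 16 mouse hippocampi were analysed, 1 animal each and 4 in each group. The deposited values are raw UMI counts for each gene in each barcode, which the authors made by aligning reads to mm10 and counting reads on pre-mRNA without normalization. The labels name Cell Ranger 3.1.0 and Seurat 3.0, and the matrix headers name Cell Ranger 6.1.2. Whether the counting used strand is not given in the sources used here. Barcodes with 200 to 4000 genes and at most 5% mitochondrial UMIs were kept, which removed 27857 barcodes with more genes (10.5 to 24.0% of a library), and 9327 doublets called from simulated doublets were left out. Counts were scaled to 10000 per nucleus, logged and clustered (2000 variable genes without the members and the pathway list, 30 components, 20 neighbours, leidenalg 0.10.2, resolution 0.5, Python 3.11.15) into 35 clusters, named from marker lists. The names are rebuilt, so microglia here are microglia-like nuclei, and so on; 11.2% of WT vehicle nuclei stayed unnamed. A name needed 3 markers found in over 10% of a cluster's nuclei.

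UMIs were summed per library and class, for libraries with at least 20 nuclei. Sums were filtered (filterByExpr), TMM-scaled and tested with edgeR 4.0.16 (glmQLFit, R 4.3.3) over 4 group means, with Benjamini-Hochberg adjustment over all genes of a class and comparison. Calls required an adjusted p below 0.05 with a log2 change beyond 0.1 in either direction. DESeq2 1.42.0 and limma 3.58.1 were alternatives. On simulated counts, 42.4% of genes changed by 1 and 89.8% of those changed by 2 on the log2 scale were recovered in microglia (8674 genes), and 57.1% and 95.9% in EN (17401 genes). Levels are UMIs per 1000000 UMIs of the class (CPM), and class orders were tested on log2(CPM + 1) by exact sign-flip permutation (SciPy 1.17.1). Counting precision follows from the UMIs given, and intervals cover the spread between libraries only.

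The members and lists were chosen with earlier results of these data known. All 8 members are described. Of the pathway list, genes called for DMXAA or between vehicle groups were named, and for each member the 3 genes of most similar class pattern (mean of at least 10 CPM in 1 class), except for items not reported here. The scaling by library sizes alone and the test between classes were added after seeing the data.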

Additional observations from a re-analysis of the deposited data

Results flagged for a closer look

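In 208 groups of 4 libraries, 18 held a library whose gap to the nearest other was large against the range of the group (Dixon's ratio over its critical value). Chance alone gives about 1 in 20, or 10.4. In whole tissue, Ifnar1 was low in WT vehicle replicate 1 (17.0 CPM, others 18.8 to 18.9) and in WT DMXAA replicate 3 (13.5, others 18.7 to 19.1), where Ifngr1 was also low (4.53, others 11.5 to 12.9). Il10rb was high in Ifnar1-/- DMXAA replicate 4 (5.64 CPM, others 4.04 to 4.2), and Tyk2 was high in WT vehicle replicate 2 (35.5, others 31.7 to 32.1), also in EN (37.5, others 33.3 to 33.7).

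In inhibitory neurons, Ifngr2 was high in Ifnar1-/- vehicle replicate 3 (11.5 CPM, others 9.60 to 9.80). Jak1 was low there in Ifnar1-/- DMXAA replicate 3 (66.8, others 77.9 to 79.6), Jak2 in WT DMXAA replicate 1 (34.9, others 39.5 to 40.3) and Tyk2 in Ifnar1-/- DMXAA replicate 2 (15.3, others 18.6 to 18.9). In microglia, WT vehicle replicate 4 was low for Ifnar2 (179 CPM, others 228 to 238) and high for Ifngr1 (283, others 217 to 222). In astrocytes, Jak1 was low in WT DMXAA replicate 1 (118 CPM, others 132 to 133) and Jak2 in Ifnar1-/- vehicle replicate 4 (60.6, others 63.8 to 64.4).

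In oligodendrocytes, Ifnar1 was low in Ifnar1-/- DMXAA replicate 3 (11.5 CPM, others 16.7 to 17.7). In OPC, Ifnar1 was low in WT DMXAA replicate 3 (8.91 CPM on 7 UMIs, others 19.2 to 19.8) and in Ifnar1-/- DMXAA replicate 1 (8.59 on 6 UMIs, others 15 to 16.3), and Jak1 in Ifnar1-/- vehicle replicate 3 (46.7, others 64.6 to 67.3).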

How the results depend on the processing

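The counts of 0 members called for DMXAA in WT, in Ifnar1-/- and for their difference held under every alternative run, with each library left out in turn. With backgrounds as low as those given above, these counts are no result about the members. The whole-tissue Ifnar1 loss stayed called in all of them, at -0.36 to -0.33 with 1 library left out and at -0.61 to -0.32 otherwise. The number of members called between vehicle groups was 9 and moved between 6 and 14 with 1 library left out, with 14 without WT DMXAA replicate 3, which is in neither group but enters the shared spread. It was 15 on library sizes only (1 higher, 14 lower, against 5 and 4), an alternative chosen after seeing the data. There the median of all genes moved from -0.06 to -0.39, and Jak1 in EN turned to -0.019 on the log2 scale (adjusted p = 0.85). The share of all genes called is not given for that scaling, so the count of 15 is no result about the members. With DESeq2 the count was 7. Calls of single members were lost in 41 settings with the same direction. They were those of Tyk2 and Ifngr2 in whole tissue, Jak1 in whole tissue and inhibitory neurons and Il10rb in whole tissue on library sizes only, Jak1 in inhibitory neurons without Ifnar1-/- vehicle replicate 2, and Ifnar1 in inhibitory neurons and astrocytes with other libraries left out. Without WT vehicle replicate 2, Tyk2 in whole tissue was at -0.17 (adjusted p = 0.10). The cause was not tested. No paired analysis was possible because replicate numbers only name animals within a group. Depth limits Ifnar1 in OPC (122 and 83 UMIs in WT and Ifnar1-/-) and Il10rb outside microglia.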

Other observations

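For each of the 8 genes, up to 3 genes with the most similar pattern over 14 named classes were listed among 16342 genes (Pearson r of log2(mean CPM + 1) over WT vehicle libraries). The classes share libraries and differ in depth, so r is a description over 14 points with no p. Ifnar1 was most like Plaur (r = 0.964), AW112010 (0.963) and Gbp9 (0.960), all 3 highest in endothelial nuclei, at 23 to 30 CPM. These peaks rest on very few UMIs, since 1 UMI was worth 15.1 or 22.9 CPM in the 2 endothelial libraries. Gbp9 is an interferon-inducible guanylate-binding protein. Ifnar2 was most like Fam76b (0.923), Casp8 (0.919) and Slc30a7 (0.902). Ifngr1 was most like AU020206 (0.965), Ddx6 (0.955) and Rab14 (0.950), and Ifngr2 like Capza2 (0.902), Qrich1 (0.888) and Stard5 (0.882).

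Il10rb was most like Ctnnd1 (r = 0.959), Il15 (0.956) and Birc3 (0.955), each highest in border macrophages. Jak1 was most like Bcor (0.899), Nrros (0.895) and Arid4a (0.880), and Tyk2 like Secisbp2 (0.936), Zcchc2 (0.929) and Arhgap17 (0.926). Jak2 had the lowest likeness, with Atl3 (0.850), highest in oligodendrocytes, and Ppp2ca (0.848).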
